A study of Mus musculus with 18 samples.

Results

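Fibroblasts that received an additional Ezh1 ahead of the loss of their own Ezh2 (Ezh1 pre-rescue) were compared with cells of the same clone that received Ezh2 at that stage (Ezh2 pre-rescue). The comparison rests on 4 arrays taken by their titles, 2 for each enzyme, out of 10 arrays in a rescue experiment and 18 in the series. Total RNA was hybridised to Affymetrix Mouse Gene 1.1 ST arrays, and the values are log2 intensities, so a difference of 1 is a 2-fold difference. All cells are C2 iMEFs, a male line of c-Myc-immortalised mouse embryonic fibroblasts, and the methods describe a clone with Ezh2 flox/Δ;ROSA26-CreERT2, in which 1 Ezh2 allele is already lost and 4-hydroxytamoxifen activates Cre to delete the other. The pre-rescue cells carried Flag-tagged Ezh1 or Ezh2 from MSCVhygro retroviruses. The other 3 groups of 2 arrays served for reference, namely control cells labelled Ezh2 WT, Ezh2 -/- cells (called Ezh2 null here) and Ezh2 post-rescue cells, which received Ezh2 only after the deletion. A separate time course of the same clone held 2 arrays each of vehicle-treated cells and of cells at day 5, day 18 and day 32 after tamoxifen, 8 in all. The time between deletion and harvest of the rescue arrays, and whether control or Ezh2 null cells carried an empty virus, are not given in the sources used here. Every group comes from 1 clone. The study calls its replicates biological, the sources used here do not say whether the deletion and rescue were made separately for each, and a p-value here covers only how far these arrays spread.

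Polycomb repressive complex 2 (PRC2) methylates histone H3 (the mark H3K27me3) and keeps genes of other lineages and stages silent in fibroblasts. Ezh1 and Ezh2 are its alternative catalytic subunits. Ezh2 is the main one in dividing cells and the stronger methyltransferase, while Ezh1 prevails in cells that have left the cycle. The study put the less active enzyme in the place of Ezh2 to ask whether a partial loss of H3K27me3 is enough to release some PRC2 targets.

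The cells of both pre-rescues carried fibroblast transcripts. Col1a2, Col3a1, Vim, Fn1, Pdgfrb and Sparc, which encode matrix proteins, an intermediate filament and a growth factor receptor, read between 9.70 and 13.15 on the 4 arrays. Col1a1 read 8.77 to 8.98. Thy1, also a fibroblast surface protein, was the lowest of the 8 markers examined, at 5.64 to 5.82. High levels were not particular to these markers, since the smooth muscle gene Acta2 read 12.78 to 13.06. The remaining markers of other cell types read at most 7.21. The blood gene Cd68, at 6.77 to 7.21, stood above Thy1. Differences between the enzymes over the 8 markers ran from -0.33 to 0.14, each with an adjusted p of 1. Markers of other cell types differed by no more than that (-0.32 to 0.0041 for smooth muscle, -0.14 to -0.0066 for epithelium, -0.0069 to 0.14 for endothelium, -0.046 to 0.073 for blood and -0.072 to 0.080 for pluripotent cells, with 4 genes each). In bulk RNA a lower share of expressing cells and less RNA per cell cannot be told apart, and this holds for every value below.

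Ezh1 and Ezh2 were the genes introduced, so their differences check the labels and cannot be read as responses to the enzymes. Ezh1 itself was the gene that passed the test. It read 11.68 and 11.85 in Ezh1 pre-rescue, against 9.84 and 9.65 in Ezh2 pre-rescue, 9.50 and 9.82 in control, 9.51 and 9.19 in Ezh2 null and 9.67 and 9.45 in Ezh2 post-rescue cells. Both Ezh1 pre-rescue arrays lay above the other 8. The difference between the enzymes was 2.02 ± 0.157 (log2 difference ± SE, n = 2 arrays a group), or 4.05-fold, with an adjusted p of 0.0362 in limma. That p was 0.0512 to 0.526 when any 1 of the 8 arrays other than the controls was left out. Ezh2 read 10.15 and 10.30 with Ezh1 given, against 12.26 and 11.84 with Ezh2 given. Its difference of -1.83 ± 0.173, or 3.55-fold, missed the threshold with an adjusted p of 0.0759, and without the replicate block it passed (adjusted p = 0.0276). The Ezh2 probe set read 10.36 and 10.56 in control and 10.46 and 10.48 in Ezh2 null cells. It therefore says nothing about the deletion of the endogenous gene, and the levels of the 2 enzymes, read by different probe sets, cannot be set against each other.

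Across 18820 genes, 1 was called higher in Ezh1 pre-rescue (0.00531% of genes) and 0 lower (0%), at an adjusted p under 0.05 and at least 2-fold in limma with the spread taken from all 10 arrays. The 1 gene was the introduced Ezh1. At an unadjusted p under 0.05, 132 genes were higher (0.701%) and 78 lower (0.414%). Both shares are far below what p-values at this cut give when no gene differs, so the test with 10 arrays was conservative. Failing it does not show that a gene was equal in the 2 pre-rescues. The median difference over all genes was -0.0055. The 95% interval of the difference lay inside a 2-fold change in either direction for 18633 genes (99%), and its median half-width was 0.24. The spread varied between groups. Arrays of 1 group lay at least 2-fold apart for 94 genes in control and 111 in Ezh2 null cells, but for 12 in Ezh1 pre-rescue, 5 in Ezh2 pre-rescue and 7 in Ezh2 post-rescue. When the fit was limited to the 4 pre-rescue arrays with the replicate number as a block, 6 genes were called higher (0.0319%), namely Ezh1, Epha3, Lyz2, Cpa6, Il1rn and Kcnip4, and 1 lower (0.00531%), Ezh2. That fit has 1 residual degree of freedom, and the estimated differences are the same in both.

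**Figure D1:**
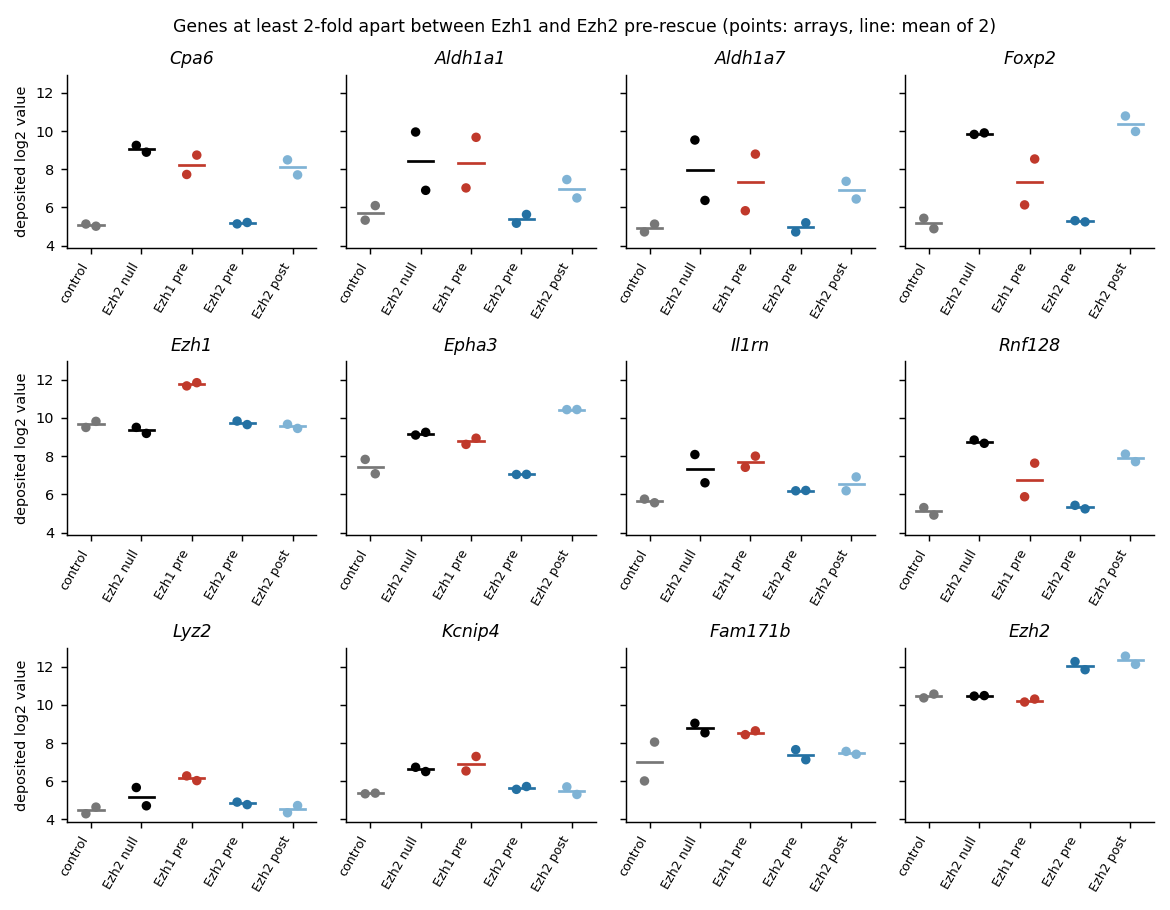
Deposited log2 value (y axis) of the 12 genes at least 2-fold apart between Ezh1 and Ezh2 pre-rescue, in the 5 groups of the rescue experiment. Points are single arrays and lines the mean of 2. Ezh2 is the only gene of the 12 that is lower with Ezh1, and for Cpa6, Foxp2 and Rnf128 the Ezh2 pre-rescue means are 0.10, 0.12 and 0.22 above the control means.

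Apart from Ezh1, 10 genes were at least 2-fold higher in Ezh1 pre-rescue, and 0 of them passed the test with 10 arrays. Of these 10 genes, 8 were among those raised by tamoxifen in the time course. Cpa6, a carboxypeptidase of the extracellular matrix and one of the genes the study imaged, read 7.73 and 8.74 in Ezh1 pre-rescue and 5.14 and 5.22 in Ezh2 pre-rescue. The 2 control arrays stood at 5.13 and 5.02, the 2 Ezh2 null arrays at 9.25 and 8.90, and the Ezh2 post-rescue arrays at 8.49 and 7.71. With Ezh2 given ahead of the deletion Cpa6 thus stood at or just above the control arrays, and with Ezh1 both arrays lay well above control and below both Ezh2 null arrays. The difference between the enzymes was 3.06 ± 0.349, or 8.32-fold (adjusted p = 0.192 with 10 arrays and 0.00703 with 4). Against Ezh2 null cells Cpa6 differed by -3.89 in Ezh2 pre-rescue (adjusted p = 0.00332) and by -0.84 in Ezh1 pre-rescue (adjusted p = 0.234). Against control cells the differences were 0.10 (adjusted p = 0.975) and 3.16 (adjusted p = 0.108). These contrasts share arrays with each other and with the comparison of the enzymes.

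Epha3, a receptor for ephrins that guides migrating cells and axons, had closer arrays in each pre-rescue group than Cpa6. The Ezh1 pre-rescue arrays of Cpa6 were 1.01 apart. Control arrays, however, were further apart for Epha3 than for Cpa6. Epha3 read 8.62 and 8.94 with Ezh1 against 7.04 and 7.05 with Ezh2. Control arrays stood at 7.83 and 7.08, Ezh2 null arrays at 9.11 and 9.25, and both Ezh2 post-rescue arrays at 10.44. The difference was 1.73 ± 0.222, or 3.33-fold (adjusted p = 0.312 with 10 arrays and 0.00192 with 4). Leaving out either control array gave the same difference. The 2 refits are alike, since a single control array adds nothing to the spread. Kcnip4, a calcium-binding partner of potassium channels, read 6.54 and 7.30 with Ezh1 and 5.57 and 5.72 with Ezh2, a difference of 1.27 ± 0.237 (adjusted p = 1 with 10 arrays and 0.0267 with 4), which was 0.84 to 1.702 with 1 array left out. Its Ezh2 null arrays, at 6.73 and 6.51, were close to the lower of the Ezh1 pre-rescue arrays. Il1rn, the antagonist of the interleukin-1 receptor, read 7.417 and 8.001 with Ezh1 and 6.187 and 6.204 with Ezh2, a difference of 1.51 ± 0.454 (adjusted p = 1 with 10 arrays and 0.0139 with 4).

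For other genes of this group the 2 Ezh1 pre-rescue arrays were far apart. Foxp2, a forkhead transcription factor, read 6.14 and 8.54 with Ezh1 against 5.31 and 5.25 with Ezh2, while control arrays stood at 5.44 and 4.89 and Ezh2 null arrays at 9.83 and 9.91. Rnf128, a membrane-bound ubiquitin ligase, read 5.88 and 7.63 against 5.43 and 5.24. Aldh1a1, which makes retinoic acid from retinaldehyde, read 7.02 and 9.67 against 5.18 and 5.63, and its close paralog Aldh1a7, whose probes can share signal with it, read 5.83 and 8.79 against 4.72 and 5.20. In each of these 4 genes replicate 2 of Ezh1 pre-rescue was the higher array by 1.76 to 2.97. The differences between the enzymes were 2.06 for Foxp2, 1.42 for Rnf128, 2.94 for Aldh1a1 and 2.35 for Aldh1a7, all with an adjusted p of 1 with 10 arrays and of 0.0986 to 0.421 with 4. In the first and second pair of same-numbered arrays the difference was 0.83 and 3.29 for Foxp2 and 0.45 and 2.39 for Rnf128. It was 1.85 and 4.04 for Aldh1a1 and 1.11 and 3.59 for Aldh1a7. The size of each rested on single arrays, since leaving out 1 array in turn moved it widely. The range was 0.69 to 3.43 for Foxp2, 0.40 to 2.44 for Rnf128, 1.27 to 4.62 for Aldh1a1 and 0.47 to 4.23 for Aldh1a7. The lowest values came without replicate 2 of Ezh1 pre-rescue and the highest without replicate 1. Either refit leaves 1 Ezh1 pre-rescue array, whose spread and replicate block are taken from the other groups. The block thus also shifts the difference. The Ezh2 null arrays were far apart too for the Aldh1a genes, at 9.95 and 6.90 for Aldh1a1 and 9.53 and 6.37 for Aldh1a7. Of the 12 genes at least 2-fold apart between the Ezh1 pre-rescue arrays, 10 belong to the 327 genes raised in the time course. Of the 5 such genes in Ezh2 pre-rescue 2 do, where 1.74% of all genes do.

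Lyz2 and Fam171b complete the set. Lyz2, a lysozyme of myeloid cells, read 6.28 and 6.03 with Ezh1 against 4.91 and 4.77 with Ezh2, 4.30 and 4.64 in control, 5.67 and 4.71 in Ezh2 null and 4.35 and 4.73 in Ezh2 post-rescue cells, so both Ezh1 pre-rescue arrays lay above the other 8. The difference was 1.31 ± 0.287 (adjusted p = 1 with 10 arrays and 0.00192 with 4). The other 11 blood cell genes measured differed by -0.11 to 0.084, and the part of blood cells in the Lyz2 value was not tested. Fam171b, a membrane protein, read 8.44 and 8.64 against 7.65 and 7.13, a difference of 1.15 ± 0.548 (adjusted p = 1), with control arrays at 6.01 and 8.05 on either side of Ezh2 pre-rescue. In the time course Lyz2 was 1.77 above vehicle at day 18 and 0.90 at day 32. Fam171b was 0.81 and 0.74 above, so neither was 2-fold higher at both times.

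**Figure D2:**
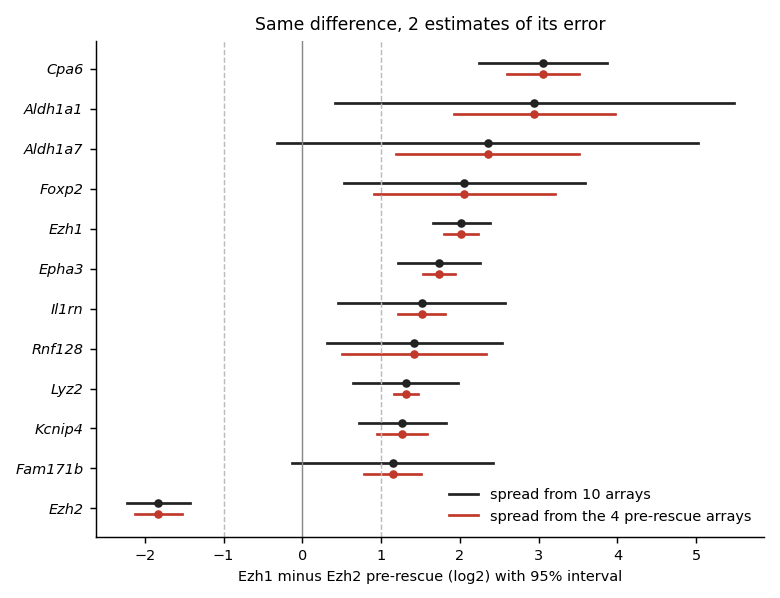
Difference between Ezh1 and Ezh2 pre-rescue (x axis, log2, Ezh1 minus Ezh2) of the same 12 genes, with its 95% interval from the fit of 10 arrays (black) and from the 4 pre-rescue arrays with the replicate block (red). Dashed lines mark a 2-fold difference. The intervals of Lyz2 are 0.65 to 1.98 with 10 arrays and 1.16 to 1.47 with 4.

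At any fold, the 4 pre-rescue arrays gave 30 genes higher with Ezh1 (0.159% of genes) and 5 lower (0.0266%), each at an adjusted p under 0.05. The genes named in this paragraph, other than those already described, were chosen after their values were seen, from these 35. Cacna2d1, an auxiliary subunit of voltage-gated calcium channels, stood just under the 2-fold line at 1.00, with 7.70 and 7.98 against 6.82 and 6.86. Its SE was 0.380 with 10 arrays and 0.0752 with 4. The cell cycle kinase Cdk6 read 8.07 and 7.98 against 7.32 and 7.03, a difference of 0.85, while its control arrays stood at 8.81 and 7.25. Igfbp5, an insulin-like growth factor binding protein, read 7.52 and 8.30 with Ezh1 against 6.72 and 7.50 with Ezh2, so the groups nearly met. Replicate 2 was 0.78 above replicate 1 with either enzyme. The difference of Igfbp5 was 0.80 in both pairs of same-numbered arrays, and 0.32 to 1.28 with 1 array left out. Another such binding protein, Igfbp4, differed by 0.57, Pappa2, a protease that cleaves such binding proteins, by 0.69, the secreted Wnt inhibitor Wif1 by 0.65 and the guidance cue Sema3c by 0.63. Pappa2 read 7.10 and 7.05 with Ezh1 and no more than 6.44 on any of the other 8 arrays, so it lay outside the range of Ezh2 null cells too. The transcriptional coactivator Ppargc1a differed by 0.74 and the lymphocyte-regulated gene Xlr by 0.79. The 4 lower genes beside Ezh2 were Fmod, a collagen-binding proteoglycan (9.52 and 9.71 against 10.19 and 10.54, a difference of -0.75), the cartilage matrix protein Ucma (-0.71, and -1.10 to -0.32 with 1 array left out), Cer1, a secreted inhibitor of BMP and Nodal (-0.71, and -0.97 to -0.45), and Hs6st3, a heparan sulfate sulfotransferase (-0.64). With the spread from 10 arrays the adjusted p was 1 for each of the genes in this paragraph except Ezh2.

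The upstream sequence of 3 of these genes is shown because their start sites differ in CG content, a feature of many sites that PRC2 occupies. Each run gives the 250 bases before the start in RefSeq (GRCm38.p6), 5′ to 3′ on the strand of the gene, with every CG in capitals. Cacna2d1 lies on the plus strand (chr5:15934441-15934690), Epha3 on the minus strand (chr16:63864176-63864425) and Lyz2 on the minus strand (chr10:117282273-117282522).
Cacna2d1: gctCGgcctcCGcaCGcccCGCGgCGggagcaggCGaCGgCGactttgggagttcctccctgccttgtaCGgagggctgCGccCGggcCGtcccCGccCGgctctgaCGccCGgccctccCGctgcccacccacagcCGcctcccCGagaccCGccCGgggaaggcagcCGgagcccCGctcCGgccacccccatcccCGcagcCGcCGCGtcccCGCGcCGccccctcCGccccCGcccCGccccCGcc
Epha3: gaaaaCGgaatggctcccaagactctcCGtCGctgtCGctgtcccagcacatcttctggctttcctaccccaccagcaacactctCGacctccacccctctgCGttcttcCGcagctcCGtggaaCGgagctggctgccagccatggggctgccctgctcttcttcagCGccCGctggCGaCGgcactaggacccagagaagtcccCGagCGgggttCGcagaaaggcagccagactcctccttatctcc
Lyz2: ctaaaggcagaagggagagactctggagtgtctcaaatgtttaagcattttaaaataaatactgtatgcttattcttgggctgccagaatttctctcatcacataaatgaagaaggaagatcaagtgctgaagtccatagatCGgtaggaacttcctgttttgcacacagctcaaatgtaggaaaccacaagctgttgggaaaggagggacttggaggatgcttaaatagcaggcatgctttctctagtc
These stretches hold 36, 16 and 1 CG. In the window of 300 bases that also takes in 50 bases after the start, the counts were 42, 18 and 1, and 4.96%, 47.7% and 95.9% of the 14749 measured genes with a window held at least as many. A window was at hand for 28 of the 30 higher genes, with counts from 0 to 50, and for all 5 lower genes, with 3 to 41. No window was at hand for Cpa6. The higher and the lower genes both included CG-rich and CG-poor starts, and a count of CG says nothing about occupancy by PRC2 in these cells.

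The genes that respond to Ezh2 loss were then taken as a group from the time course, whose arrays have no part in the comparison of the enzymes. There, 327 genes (1.74%) were higher at both day 18 and day 32 than in vehicle-treated cells and 160 (0.85%) were lower, at an adjusted p under 0.05 and at least 2-fold at both times. Of the 327, 39 were higher in Ezh1 than in Ezh2 pre-rescue at an unadjusted p under 0.05 and 0 lower, which is 11.9% against 0.701% of all genes, and 0 passed the adjusted threshold. Their median difference was 0.10 (0.085 in the first pair of same-numbered arrays and 0.13 in the second), against -0.0055 for all genes. Relative to the mean of the control arrays, the median of the 327 genes was 0.044 and 0.094 with Ezh1 and -0.020 and 0.0011 with Ezh2. On the Ezh2 null arrays it was 0.76 and 0.87, and on the control arrays 0.049 and -0.049. The Ezh1 arrays thus stood far nearer to control than to Ezh2 null cells. In both pairs 185 of the 327 (56.6%) were higher with Ezh1 and 30 (9.17%) lower, where 24% and 28.3% of all genes were. Among the 30 genes higher at any fold with the 4 pre-rescue arrays, 18 (60%) belong to the 327, which is 5.5% of that list, and 0 belong to the 160. The 8 members at least 2-fold apart are Cpa6, Aldh1a1, Aldh1a7, Foxp2, Epha3, Il1rn, Rnf128 and Kcnip4. Without the 10 members with the widest differences the median was 0.092. The interquartile range over the list was 0.0054 to 0.22.

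**Figure D3:**
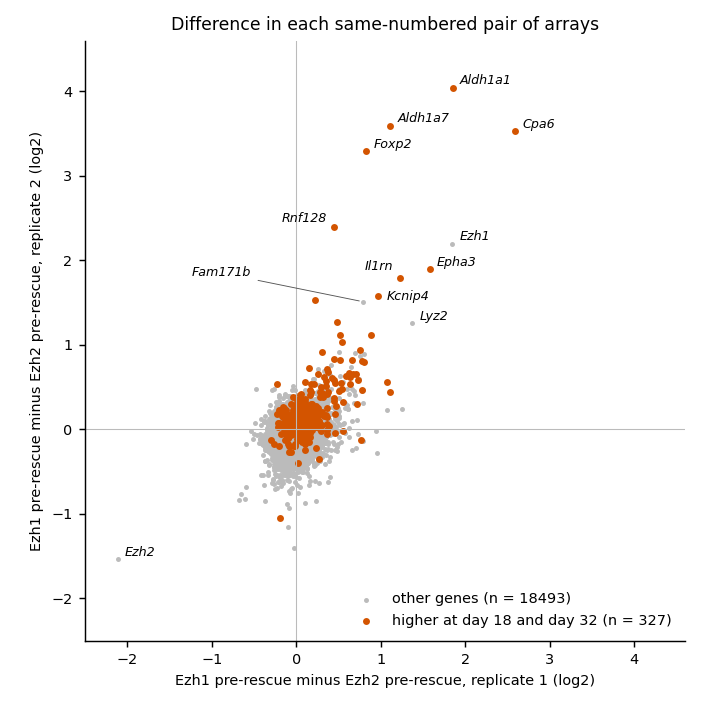
Ezh1 minus Ezh2 pre-rescue (log2) of each gene in the arrays numbered 1 (x axis) and in those numbered 2 (y axis). Genes higher at day 18 and day 32 after Ezh2 deletion are in orange, all others in grey, and the 12 genes at least 2-fold apart on average are named. Orange genes make up most of the points far to the upper right, 5 of the 7 genes above 2-fold in both pairs.

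The 160 genes lower in the time course leaned the other way. Their median difference was -0.18, with 98 (61.3%) lower with Ezh1 in both pairs and 6 (3.75%) higher, and 12 (7.5%) lower at an unadjusted p under 0.05 against 0.414% of all genes. No member passed the adjusted threshold. The pairs differed in size here, with medians of -0.065 in the first and -0.30 in the second. Relative to the mean of the control arrays, the median of the 160 genes was -0.0023 and -0.051 with Ezh1 and 0.085 and 0.27 with Ezh2. It was -0.57 and -0.77 on the Ezh2 null arrays and -0.16 and 0.16 on the control arrays. The Ezh1 arrays thus lay within the range of the control arrays. Members with the smallest p among the listed matrix and cartilage genes were Lum, a keratan sulfate proteoglycan that organises collagen (6.54 and 6.37 against 6.73 and 7.04), and Cnmd, the cartilage glycoprotein chondromodulin (8.78 and 8.72 against 9.06 and 9.32). Lum and Cnmd were lower with Ezh1 by 0.42 ± 0.159 and 0.44 ± 0.1502 on average (adjusted p = 1).

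Another reading takes the genes from the rescue experiment itself. In Ezh2 null cells 119 genes (0.632%) were called higher than in control and 40 (0.213%) lower. These lists were chosen on the control and Ezh2 null arrays, which share the fit with the pre-rescues. Relative to the mean of the control arrays, the median of the 119 genes was 1.40 and 1.49 on the Ezh2 null arrays, 0.35 and 0.36 with Ezh1, 0.13 and 0.14 with Ezh2, and 0.99 and 0.79 in post-rescue cells. The 4 pre-rescue arrays thus stood well nearer to control than to Ezh2 null cells, with the Ezh1 arrays above the Ezh2 arrays. The median difference between the enzymes was 0.17, 29 of the 119 (24.4%) were higher with Ezh1 at an unadjusted p under 0.05 and 0 lower, against 0.701% and 0.414% of all genes, and 0 passed the adjusted threshold. For the 40 lower genes the medians were -0.31 and -0.33 with Ezh1 and -0.16 and 0.090 with Ezh2, with 30 (75%) lower in both pairs and 2 (5%) higher, against 28.3% and 24% of all genes. The median difference of these 40 was -0.24 for the mean of both pairs, -0.10 in the first pair and -0.34 in the second.

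**Figure D4:**
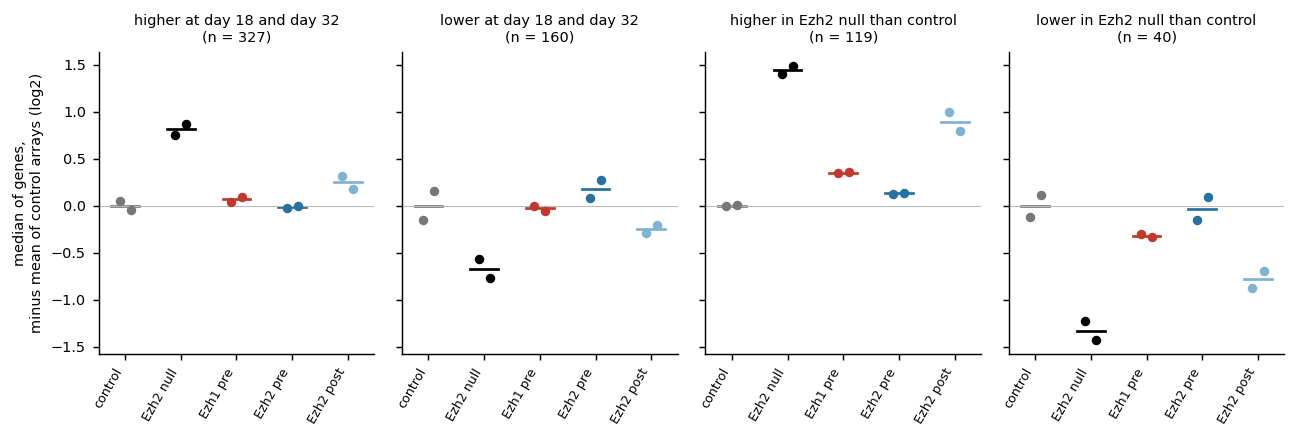
Median over the genes of a list, relative to the mean of the control arrays (y axis, log2), on each array of the 5 groups. Points are arrays and lines the mean of 2. In the 119 genes higher in Ezh2 null cells the Ezh1 pre-rescue arrays stand at 0.35 and 0.36 and the Ezh2 pre-rescue arrays at 0.13 and 0.14.

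Gene by gene, 26 of the 119 (21.8%) had an Ezh1 pre-rescue mean nearer to the Ezh2 null mean than to the control mean, and 16 of them on both arrays. With Ezh2 the number was 8 (6.72%), 4 of them on both arrays, and in post-rescue cells it was 71 (59.7%). Cpa6, Epha3, Kcnip4, Glcci1, Xlr and Cacna2d1 were among the 26 with Ezh1 and were not among the 8 with Ezh2. Foxp2 and Rnf128, with Ezh1 pre-rescue means just below the midpoint, were not among the 26. Other genes were near the Ezh2 null level with either enzyme, as Slit3 and Igfbp4 show (Slit3 and Glcci1 were chosen after their values were seen). Slit3, a guidance ligand, had a mean of 8.43 with Ezh1, 8.44 with Ezh2, 8.48 in Ezh2 null and 6.84 in control cells, with no direction between the enzymes that held when 1 array was left out, and Igfbp4 a mean of 10.48, 9.90, 10.03 and 8.58 in that order. In the time course Igfbp4 was only 0.18 above vehicle at day 18 and 0.35 at day 32, and Slit3 was 1.71 and 1.19 above. Of the 40 lower genes, 6 (15%) were nearer to Ezh2 null with Ezh1 and 1 (2.5%) with Ezh2. No test was made on these counts.

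Of 12 PRC2 genes measured, only the introduced Ezh1 passed the test. The widest difference among the 10 other than the enzymes was that of Phf19, an accessory subunit that binds methylated histone H3, at 6.16 and 6.22 against 6.03 and 5.95, a difference of 0.20 with an interval of 0.0044 to 0.40. Among 18 PRC1 genes, the complex that acts beside PRC2, 0 passed and differences ran from -0.18 to 0.26, the highest for Bmi1, a core subunit, with an interval of 0.0030 to 0.52. The intervals of Phf19 and Bmi1 excluded 0, and both had an adjusted p of 1. The 17 enzymes that oppose PRC2 or methylate DNA differed by -0.19 to 0.15. Each of the 36 Hox genes measured, classical Polycomb targets, differed by -0.15 to 0.28.

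Growth control genes showed no passing difference either. Cdkn2a, the Ink4a/Arf locus that PRC2 silences in young fibroblasts, read 8.56 and 8.44 with Ezh1 and 8.59 and 8.51 with Ezh2, a difference of -0.050 with an interval of -0.24 to 0.14. Its control arrays stood at 8.47 and 8.44 and its Ezh2 null arrays at 8.40 and 8.50, a difference of -0.0074. The values therefore cannot show whether Ezh1 keeps this locus silent. Cdkn1a, the p21 inhibitor of cyclin-dependent kinases, read 6.79 on both Ezh1 arrays and 6.64 and 6.63 on the Ezh2 arrays, against 8.25 and 7.95 in Ezh2 null cells. Its difference was 0.16, with an interval of -0.25 to 0.57. The 27 proliferation genes had a median difference of 0.015 and a range of -0.078 to 0.18, and for 22 p53 targets the range was -0.20 to 0.18.

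Among 33 gene lists examined, the adjusted threshold was passed by 0 genes other than Ezh1, and the medians ran from -0.11 to 0.095. The 38 extracellular matrix and fibroblast genes had a median of -0.086, with 24 (63.2%) lower with Ezh1 in both pairs and 6 (15.8%) higher, against 28.3% and 24% of all genes. Lum and Tnc, an adhesion-modulating matrix protein, were lower at an unadjusted p under 0.05, and 0 were higher. The 31 interferon response genes had the lowest median, -0.11, yet it was 0.014 in the first pair and -0.21 in the second, and 0 genes were at an unadjusted p under 0.05. In the glycolysis and hypoxia list 15 of 22 (68.2%) were higher in both pairs and 2 (9.09%) lower, against 24% and 28.3% of all genes, with a median of 0.058. Car9, a carbonic anhydrase induced by low oxygen, differed by 0.52 and the glycolytic enzyme Pfkp by 0.36, both at an adjusted p of 1. The 17 oncofetal and insulin-like growth factor genes had the highest median, 0.095, with Igfbp5 and Igfbp4 at its top.

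Lists of signalling and lineage genes were set beside the 0.701% of all genes higher and 0.414% lower at an unadjusted p under 0.05. Of 42 axon guidance genes, 3 (7.14%) were higher at that p, namely Epha3, Sema3c and the ligand Efna3 (0.36), and the median was -0.032. Of 43 Wnt genes, Wif1 (0.65) and the agonist Rspo3 (0.41) were higher (4.65%) and the receptor Fzd8 (-0.31) lower (2.33%). Foxp2 and Rorb, a nuclear receptor, were the 2 of 134 developmental transcription factors at that p (1.49%), both higher, and the median of that list was 0.0068. Tgfbr1, a receptor of TGF beta, was the 1 of 29 in the TGF beta and BMP list at that p (3.45%), with a difference of 0.39. Of 29 ion channel genes, the calcium channel subunit Cacna2d1 was higher (1.00) and the potassium channel subunit Kcnab1 lower (-0.25), each 3.45% of the list. The interval of the difference excluded 0 for each of these genes, and the adjusted p was 1 for each except Epha3. Neuronal, skeletal muscle, adipocyte, germline and pluripotency lists had 0 members at an unadjusted p under 0.05.

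**Figure D5:**
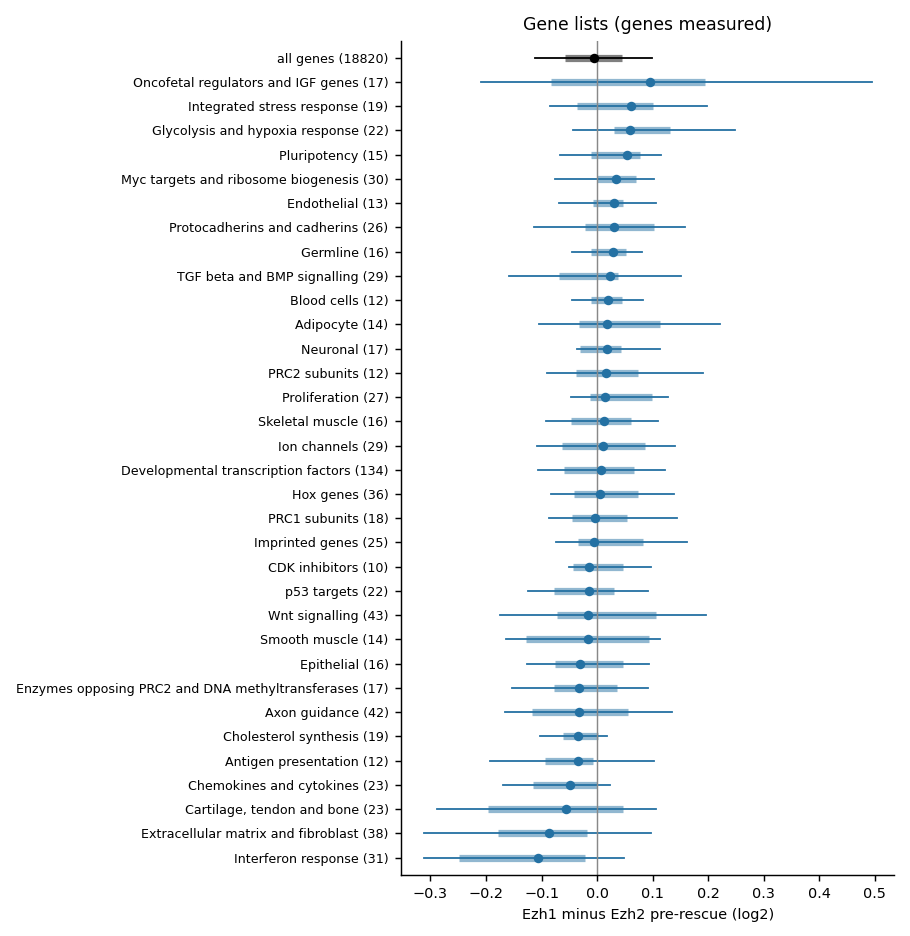
Ezh1 minus Ezh2 pre-rescue (x axis, log2) over the genes of each list, with the number measured in parentheses. Points are medians, thick bars the interquartile range and thin lines the 10th to 90th percentile. Medians lie between -0.11 for interferon response genes and 0.095 for oncofetal and insulin-like growth factor genes, and the median of all genes is -0.0055.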

How the data were processed

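RNA of 18 arrays was used, 10 from the rescue experiment and 8 from the time course, with 2 per group, grouped by their titles. The deposited log2 intensities were produced by the authors with RMA (oligo package). For the rescue arrays the methods also state a correction with limma for a bias between first and second replicates, and whether the deposited values carry it is not given in the sources used here. Tool versions and a genome build are not given there either.

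Of 28440 probe sets, 21217 had 1 gene symbol, 1881 several and 5342 none, and 21184 were matched to RefSeq by gene identifier. For the 1386 genes with several, the one highest on average was used, leaving 18820 genes. The 7223 unnamed or shared probe sets were fitted apart, and 0 were called.

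Differences came from limma (version 3.58.1, R 4.3.3; lmFit, eBayes, two-sided), with 1 mean for each of 5 groups and the replicate number as a block, over the 10 rescue arrays (4 residual and 3.63 prior degrees of freedom) or the 4 pre-rescue arrays (1 and 5.65). No block was used in the time course. The Benjamini-Hochberg adjustment ran over all genes, and called genes had an adjusted p under 0.05 and at least a 2-fold difference. Replicate differences correlated across genes between the pre-rescues (r = 0.54) and between -0.43 and 0.047 for the other 9 pairs of groups, so the pairing by number holds for the pre-rescue arrays at most, and the block was kept because of the stated bias. The number of arrays limits the precision.

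Genes named were Ezh1, Ezh2, Cpa6, Cdkn2a and Cdkn1a, those passing (up to 15 each way), then those at least 2-fold apart with the smallest p (up to 10 each way), up to 10 of the time course list with the largest difference, and up to 4 of each gene list with the smallest p. Predicted genes, receptors of smell and small RNAs were not named. The samples, gene lists and rules were chosen with earlier results of these data known.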

Additional observations from a re-analysis of the deposited data

How the results depend on the processing

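The calls moved with the estimate of the spread. The counts below include the introduced Ezh1 and Ezh2 where they were called. The number of genes called higher with Ezh1 was 1, and became 6 with the 4 pre-rescue arrays and the block, 2 with those arrays and no block, 2 after median centring of each array, 0 when all probe sets were tested and 11 by a rank product over the same-numbered pairs at the study's threshold. With 1 array left out it ranged from 0 to 3. The number called lower was 0, and became 1 with no replicate block, with the 4 pre-rescue arrays and the block, after median centring, with trend and robust estimation in eBayes, at an adjusted p under 0.15 and by rank product, and in each of these the gene was Ezh2. A block for the pre-rescue arrays alone, chosen after seeing the data, gave 1 higher and 0 lower.

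The median difference of the 327 genes higher in the time course was 0.10, and became 0.14 after median centring, 0.032 with the list chosen at any fold, and 0.077 to 0.18 with 1 array left out. That of the 160 lower genes was -0.28 to -0.097 with 1 array left out. For the 119 genes higher in Ezh2 null cells it ranged from 0.10 to 0.19 and for the 40 lower genes from -0.43 to -0.12 in the same way, with lists chosen anew. Of 50 named genes in 949 refits, direction was lost in 3, all for Slit3 (-0.0097, which became 0.00072 after quantile normalization and -0.18 to 0.16 with 1 array left out), and the call changed in 24. With 1 array left out, 19 of the 50 moved by over 1.5 times, Rorb from 0.17 to 1.58. Lyz2 was left out of the test without the lowest 30% of genes, and genes given only within the range of a list were not refitted one by one. The cause of these changes was not tested.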
